A study of Mus musculus with 8 samples.

Results

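Undifferentiated BAC brown preadipocytes were compared with undifferentiated 3T3-L1 cells by RNA-seq at day 0, 2 days after the cultures became confluent and before any induction medium was given. The comparison used 4 of the 8 libraries in the series, namely BAC replicates 1 and 2 and 3T3-L1 replicates 2 and 3, and the genes were the 21828 symbols that occurred once in the count table of each line. BAC cells were taken from interscapular brown fat of newborn mice, made immortal with the SV40 large T antigen and kept by hygromycin selection, and are labelled as wild-type preadipocytes of brown adipose tissue. 3T3-L1 is a spontaneously immortal mouse line that forms white-type adipocytes, labelled as wild-type fibroblasts of the embryo. Both lines were grown in the same medium, DMEM with 10% fetal bovine serum. Each line is a single cell line, so tissue of origin, immortalisation, table and counting differ together and cannot be told apart, and the labels do not state whether replicates were separate cultures. P-values therefore measure only the spread between the libraries, which may be technical.

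Brown and white preadipocytes are both mesenchymal cells, and neither expresses the thermogenic or lipid-storage program in quantity until it is induced. Brown precursors are thought to be committed early, by factors such as EBF2, PRDM16 and ZIC1, and they keep a record of body position in their Hox and other homeobox genes.

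The libraries held 10152293 and 10160636 counts in BAC and 9590498 and 9512594 in 3T3-L1, of which 97.8% in each BAC library and 100% in each 3T3-L1 library fell on joined symbols. The chi-square between replicates was 2.75 per gene in BAC and 2.18 in 3T3-L1, above the 1 that counting alone would give, but the biological coefficient of variation was only 4.03%. With so little spread, 76.4% of the 12355 genes tested passed an adjusted p of 0.05, so a gene was called only where it also differed at least 4-fold. By that rule 1118 genes (9.05%) were higher in BAC and 458 (3.71%) were lower. The median log2 difference over all genes tested, BAC minus 3T3-L1, was 0.02, and the middle 50% of genes lay between -0.49 and 0.61. Levels are given as CPM, counts per 1000000 counts of the library after scaling by TMM. Among the 10171 well-counted genes, those with an average log2 CPM of at least 3, 527 were higher and 239 lower.

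**Figure D1:**
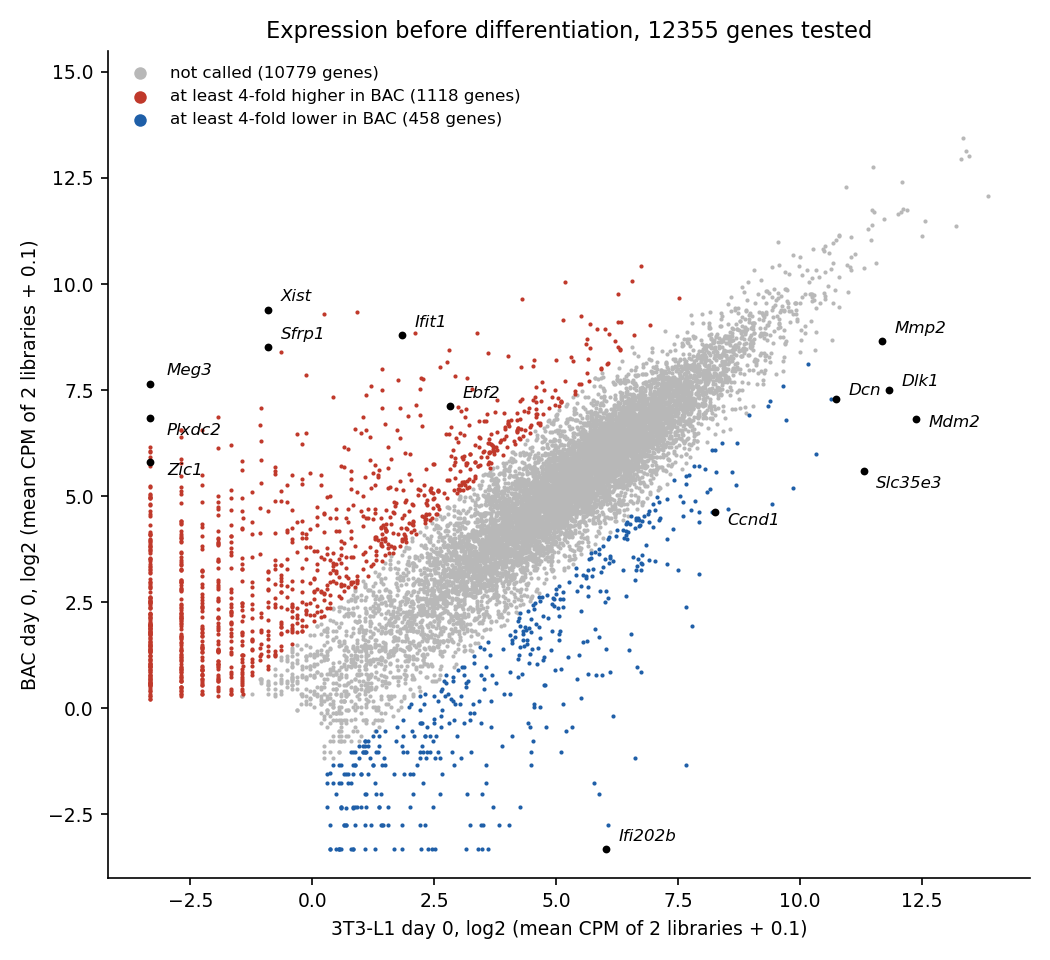
Each point is 1 of the 12355 genes tested, with the mean CPM (counts per 1000000 counts, TMM-normalised) of the 2 3T3-L1 libraries on the horizontal axis and of the 2 BAC libraries on the vertical axis, both as log2 of CPM plus 0.1. Red and blue points are genes at least 4-fold higher (1118) or lower (458) in BAC, black points are named genes, and the vertical stripes at the left edge are genes with 0 or very few counts in 3T3-L1.

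Both tables could count most of the called genes. Of the 1118 genes higher in BAC, 1007 were counted in the 3T3-L1 table on some day of the experiment, and 175 had no count at day 0, of which 64 were counted at day 6. Of the 458 lower genes, 438 were counted in the BAC table on some day, and 23 had no count in BAC at day 0. A gene that one table never counts could be silent there or uncountable, and these cannot be told apart from the tables alone.

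The first group of members was the brown precursor identity genes. Ebf2, the transcription factor that commits precursors to the brown lineage and marks them (chr14:67233292-67430952 in GRCm38.p6), had 1489 and 1373 counts in BAC and 67 and 62 in 3T3-L1. Both BAC libraries lay far above both 3T3-L1 libraries, at 139 ± 7.48 CPM against 6.99 ± 0.376 CPM (SD, n = 2 each), a log2 difference of 4.31 ± 0.095 (SE; adjusted p = 2.26e-15). Zic1, a zinc finger factor used as a marker of classical brown fat precursors, had 589 and 553 counts in BAC and none in either 3T3-L1 library, so it was at least 342-fold higher where the group is given a floor of 3 counts in all. Prdm16, a coregulator that drives the brown program, had 108 and 118 counts in BAC and none in 3T3-L1, at least 67.6-fold higher. For these genes the lines did not overlap, and Zic1 and Prdm16 were at 0 in 3T3-L1 while Ebf2 was counted there.

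Of the 13 members of that list that could be tested, 5 (38.5%) were higher in BAC, 1 (7.69%) was lower and 7 were not called, beside 9.05% and 3.71% of all genes, and the median log2 difference was 1.23 (also 1.23 with genes near 0 set to their bounds) against 0.02 over all genes. Kng2, a kininogen, was the fourth member that was called higher, with 358 and 414 counts in BAC and none in 3T3-L1. Lhx8, a LIM homeobox factor of brown fat, had 39 and 38 counts in BAC and 0 and 1 in 3T3-L1, a ratio of 69.1 (95% interval 12 to 2766). Eya1, a phosphatase and transcriptional coactivator, went the other way, with 59 and 67 counts in BAC and 811 and 797 in 3T3-L1 (log2 difference -3.83 ± 0.10). Ebf1 and Ebf3, the close relatives of Ebf2, differed by 0.50 and 0.27, so the gap at Ebf2 was not found across the family. Pax3, a factor of the dermomyotome, had 254 and 294 counts in BAC against 62 and 61 in 3T3-L1, just short of the 4-fold limit, and Tbx15 differed by 1.23. Myf5 and Pax7, which mark the early muscle and brown fat lineage, had no counts in any of the 4 libraries. Among the 9 tested members whose exons overlap no other gene, 2 were higher and the median was 0.50.

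Of 20 general adipogenic factors tested, 1 (5%) was higher and 1 (5%) lower, near the shares of all genes, 9.05% and 3.71%, and the median log2 difference was 0.20 (0.09 without 3T3-L1 replicate 2). Without BAC replicate 1, 2 were called lower. Pparg, the nuclear receptor that directs fat cell formation, had 916 and 971 counts in BAC and 326 and 312 in 3T3-L1, a log2 difference of 1.41 ± 0.073 that passed the test (adjusted p = 5.41e-11) but not the 4-fold limit. Cebpa, its partner in late differentiation, had 966 and 912 counts against 442 and 410 (0.99 ± 0.070), and Cebpb, Cebpd, Zfp423 and Rxra lay between -0.34 and 0.56.

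The called members were Klf15 and Ppargc1a. Klf15, a Krüppel-like factor induced by glucocorticoids, had 173 and 165 counts in BAC and 1 in each 3T3-L1 library, a ratio of 152 (95% interval 41.7 to 1258), although the 3T3-L1 table counted it 698 and 656 times at day 6. Ppargc1a, the coactivator of mitochondrial biogenesis known as PGC1α, had only 7 and 12 counts in BAC against 216 and 213 in 3T3-L1 (log2 difference -4.63 ± 0.22; adjusted p = 1.57e-11). In this gene, usually read as a brown fat marker, the undifferentiated white-type line was thus the higher of the pair.

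Mature adipocyte markers were checked against the label of preadipocyte. Ucp1, the uncoupling protein, and Cidea, which brown fat uses to enlarge lipid droplets, had 0 counts in all 4 libraries, as did Lep. The 8 markers together summed to 97.6 to 146 CPM in BAC and 10.1 to 25.5 CPM in 3T3-L1. Adipoq, the hormone adiponectin, had 273 and 223 counts in BAC and 15 and 5 in 3T3-L1 (4.46 ± 0.26), and Fabp4, the fatty acid carrier, had 1164 and 724 against 173 and 81 (2.74 ± 0.23). Plin1, which coats lipid droplets, was also higher, and Cidec was not called. These genes moved with the line, and whether they reflect a few differentiating cells in either culture was not tested; in bulk RNA, more cells of a type and more RNA per cell cannot be told apart.

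Of the 15 tested markers of mesenchymal cells and preadipocytes, 3 (20%) were higher in BAC, 2 (13.3%) lower and 10 not called, beside 9.05% and 3.71% of all genes. Their median was -0.58, but 0.04 over the 9 whose exons overlap no other gene, and between -0.31 and -0.25 without BAC replicate 1, 3T3-L1 replicate 2 or 3T3-L1 replicate 3. Pdgfra, the receptor that marks adipocyte progenitors, had 4412 and 4740 counts in BAC and 6090 and 6233 in 3T3-L1 (-0.58 ± 0.057), and Pdgfrb, its pericyte-associated relative, had 5177 and 5276 against 4332 and 4371 (0.11 ± 0.053). Eng, the TGF-β coreceptor endoglin, had 1345 and 1438 counts in BAC and 29 and 19 in 3T3-L1 (5.70 ± 0.12). Cd34, a sialomucin of progenitors, was likewise higher in BAC, at 341 and 320 against 16 and 20 counts. Lower in BAC were Thy1, the surface protein CD90 (284 and 312 against 1852 and 1732 counts), and Anpep, the aminopeptidase CD13 (121 and 103 against 626 and 699).

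Markers of other cell types were mostly scarce. Of 8 immune markers 5 had 0 counts in both lines, and the list summed to 7.67 to 8.01 CPM in BAC and 15.9 to 18.6 CPM in 3T3-L1. The 6 epithelial markers summed to at most 0.488 CPM in any library, and the 8 skeletal muscle markers to 4.98 to 6.41 CPM in BAC and 2.82 to 3.90 CPM in 3T3-L1. Endothelial markers reached 18.6 to 20.4 CPM in BAC against 2.93 to 4.12 CPM in 3T3-L1, but Pecam1 and Cdh5 had at most 6 counts in any library, and the gap came from Kdr alone, the VEGF receptor that mesenchymal cells can also express. Bone and cartilage markers summed to 89.0 to 90.1 CPM in BAC and 151 to 157 CPM in 3T3-L1, Schwann and neural markers to 142 to 152 CPM and 165 CPM, and mesothelial markers to at most 4.00 CPM in any library.

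Hox genes are the clustered homeobox factors whose combination marks position along the body axis, and most of them differed between the lines. Of 39 listed, 28 were tested, and 17 of these were higher in BAC and 4 lower, against 9.05% and 3.71% of all genes. Their median log2 difference was 2.67 and the range ran from -3.48 to 12.44.

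**Figure D2:**
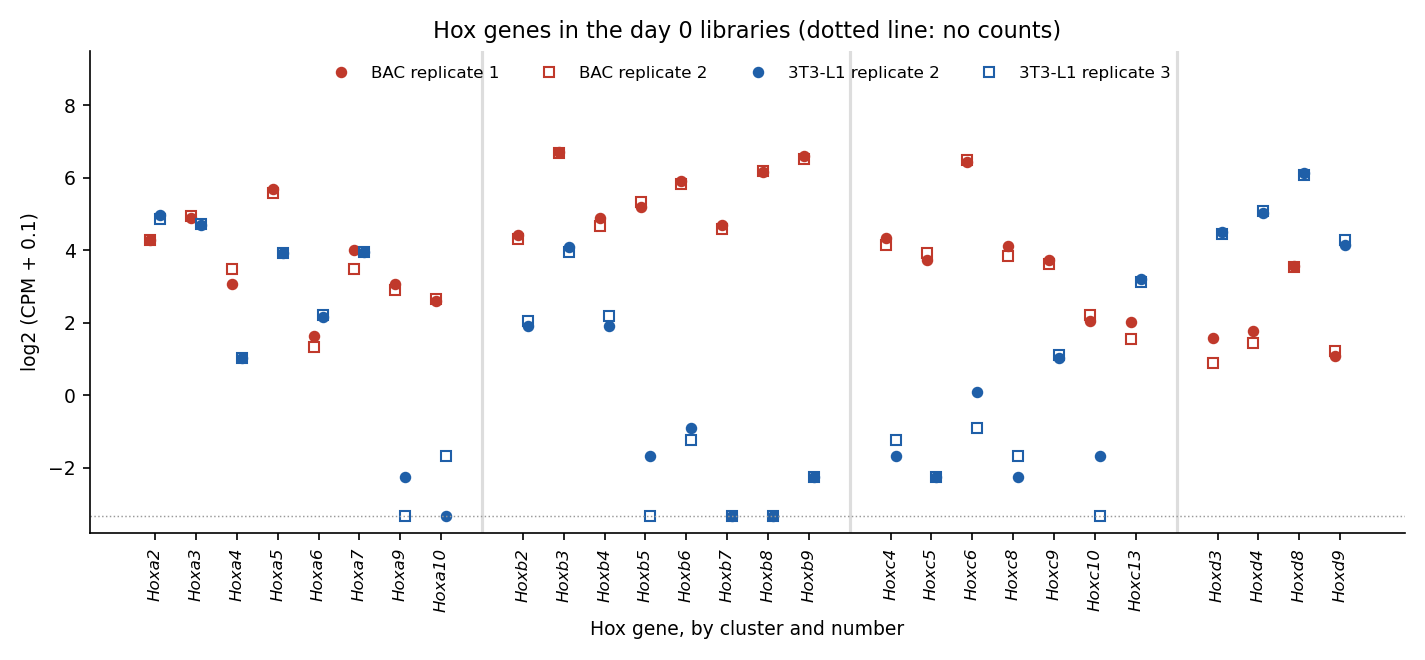
Of the 28 Hox genes tested, 27 are shown along the horizontal axis by cluster and number, with log2 of CPM plus 0.1 in each library on the vertical axis (red BAC, blue 3T3-L1, filled and open symbols for the replicates). All 8 genes of the Hoxb cluster lie above 3T3-L1 in both BAC libraries, with Hoxb7 and Hoxb8 at 0 counts in 3T3-L1, whereas the 4 Hoxd genes lie below.

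The direction followed the clusters. All 8 tested genes of the Hoxb cluster on chromosome 11 were higher in BAC. Hoxb8 had 729 and 738 counts in BAC and none in 3T3-L1, at least 439-fold higher, and Hoxb9 had 991 and 943 against 1 and 1, a ratio of 868 (95% interval 240 to 7174). Hoxb7 had 267 and 244 counts against none (at least 153-fold) and Hoxb5 had 372 and 410 against 2 and 0 (a ratio of 351, 95% interval 96.9 to 2904). The anterior end of the cluster was counted in both lines, so that Hoxb2, Hoxb3 and Hoxb4 differed by only 2.41 ± 0.16, 2.68 ± 0.081 and 2.75 ± 0.16.

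In the Hoxc cluster, 6 of 7 tested genes were higher in BAC, among them Hoxc6 with 886 and 915 counts against 9 and 4. Hoxc13, the most posterior, was not called at -1.38. In the Hoxa cluster Hoxa2, Hoxa3, Hoxa5, Hoxa6 and Hoxa7 were not called, with log2 differences from -0.70 to 1.70, and Hoxa4 was higher by 2.30 ± 0.24, while Hoxa9 had 85 and 75 counts in BAC and 1 and 0 in 3T3-L1. The Hoxd cluster was reversed. Hoxd4 had 34 and 27 counts in BAC and 302 and 312 in 3T3-L1 (-3.48 ± 0.15), and Hoxd3, Hoxd8 and Hoxd9 were lower too, between -3.23 and -2.56. Hox genes lie close together and the strand of the counts is not given, so reads of antisense partners cannot be told apart. Of the 15 tested Hox genes whose exons overlap no other gene, 10 were higher and 2 lower, and their median was 5.64.

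Of 19 other factors of position tested, 4 (21.1%) were higher in BAC and 1 (5.26%) lower, beside 9.05% and 3.71% of all genes. Their median was -0.27, 0.60 over the 12 whose exons overlap no other gene and -0.16 without 3T3-L1 replicate 3. Without BAC replicate 1, BAC replicate 2 or 3T3-L1 replicate 2, 2 were called lower. Foxc1, a forkhead factor of mesenchyme, had 1036 and 1016 counts against 149 and 154 (2.60 ± 0.080), and Tbx2 was also higher (2.19 ± 0.17). Irx3, an Iroquois factor, was lower, with 37 and 38 counts in BAC against 252 and 207 in 3T3-L1.

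Interferon-stimulated genes were higher in BAC across nearly the whole list. Cells that sense viral nucleic acid or interferon activate a complex that includes STAT2 and IRF9, which binds the interferon-stimulated response element in the promoters of antiviral genes. Of 39 members tested, 32 (82.1%) were higher in BAC and none was lower, beside 9.05% and 3.71% of all genes. At an unadjusted p below 0.05 all 39 were higher and 0 lower, and DESeq2 also called 32 higher and 0 lower. The 7 members not called were above 0 too, with a range over the list from 1.09 to 8.75 and a median of 3.71. The promoters of 4 members are printed to show this element, which many promoters of the list hold. The letters are RefSeq sequence of GRCm38.p6 on the strand of the gene, and the capitals mark the element GAAA, any 2 bases and GAAA again, on either strand, with overlapping matches run together.
Ifit1 (chr19:34640760-34640819, plus strand): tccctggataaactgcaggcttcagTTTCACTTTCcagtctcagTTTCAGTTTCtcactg
Isg15 (chr4:156200862-156200921, minus strand): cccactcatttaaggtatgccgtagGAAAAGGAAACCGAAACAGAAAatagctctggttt
Oas1a (chr5:120907511-120907570, minus strand): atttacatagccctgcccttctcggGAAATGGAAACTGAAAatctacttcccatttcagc
Rsad2 (chr12:26456538-26456597, minus strand): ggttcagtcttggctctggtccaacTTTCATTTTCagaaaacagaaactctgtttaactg

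The element occurred in the promoter window, 250 bases before to 50 after the start site, of 13 of the 23 called members with a window (56.5%), against 3.99% of the 27025 genes with a window and 3.78% of those tested. Over all 31 members with a window, called or not, it was in 16 (51.6%). The list was made of interferon-stimulated genes, so a high share comes with the choice of list. It says nothing about the gaps between the lines. A match describes letters and not bound sites. Ifit1, an antiviral protein that binds foreign RNA, had 4254 and 4855 counts in BAC and 31 and 33 in 3T3-L1 (6.99 ± 0.11; adjusted p = 1.04e-16). Isg15, a ubiquitin-like modifier, had 2042 and 2467 against 43 and 42 (5.57 ± 0.13). Oas1a, which makes the second messenger that activates RNase L, had 433 and 493 against 0 and 2, a ratio of 416 (95% interval 115 to 3438), and Rsad2, the antiviral enzyme viperin, had 443 and 568 against 3 and 2 (7.44 ± 0.28). No 3T3-L1 library came near a BAC library for any of these genes.

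Other genes of the pathway were higher too. Of these, Stat2, Ifih1, Ddx58 and the Oas genes belong to the same list and are already counted above. Among the factors of the pathway, Stat2 had 4590 and 5425 counts in BAC and 500 and 555 in 3T3-L1, a log2 difference of 3.09 ± 0.085. Irf9 differed by 2.12 ± 0.077. Irf7, the factor that amplifies interferon production, had 2081 and 2341 counts against 47 and 40 (5.51 ± 0.11). Of the sensors of viral RNA, Ifih1, which encodes MDA5, had 941 and 1018 counts against 13 and 19, and Ddx58, which encodes RIG-I, had 2770 and 3250 against 350 and 397. Oas2, Oas3 and Oasl1, relatives of Oas1a, were also among the largest gaps, with Oas3 at 51 and 62 counts in BAC and none in 3T3-L1, at least 33.8-fold higher. These are levels of day 0 cultures. In BAC at day 4 Oas1a had 4 and 0 counts, Oas2 3 and 4, Oas3 1 and 0, and Oasl1 2 and 7. Other members are not given at day 4. The smallest differences on the list were those of Samd9l (1.09), Ifitm3 (1.19) and Eif2ak2 (1.32). BAC replicate 2 was above BAC replicate 1 in CPM for 37 of the 39 members. Oasl2 had 4135 counts in BAC replicate 1 and 5291 in BAC replicate 2, against 33 and 45 in 3T3-L1, so the gap between lines far exceeded the gap between replicates.

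Antigen presentation, which interferon also induces, followed in part. Of 20 tested members of the MHC class I pathway, 8 (40%) were higher in BAC and 0 lower by edgeR and by DESeq2, beside 9.05% and 3.71% of all genes, with a median of 1.33 (3 were lower at an unadjusted p below 0.05). Among its 9 members whose exons overlap no other gene, 2 were higher. Psmb8, an immunoproteasome subunit, had 375 and 416 counts in BAC and 4 and 7 in 3T3-L1 (5.98 ± 0.22), and H2-T23 had 912 and 942 against 15 and 20 (5.56 ± 0.13). The classical chains were closer, with H2-K1 at 2.40 ± 0.095, H2-D1 at 0.97 and B2m, the shared light chain, at 1.27. H2 genes are a family of near-identical copies, so how reads were split between them is uncertain. Of 17 chemokines and cytokines tested, 5 (29.4%) were higher in BAC and 2 (11.8%) lower, beside 9.05% and 3.71% of all genes, with a median of 0.51 (0.94 without 3T3-L1 replicate 3). Without BAC replicate 2, 1 was called lower. Cxcl10, a chemokine that interferon induces, had 598 and 910 counts against 2 in each 3T3-L1 library (8.32 ± 0.37), and Cxcl9, another such chemokine, had 148 and 195 against 1 and 0. Cxcl5, a neutrophil attractant, was lower, at 7 and 1 counts against 309 and 320 (-6.41 ± 0.26). Ifi202b, an interferon-inducible gene of the cluster of cytosolic DNA binding proteins on chromosome 1, went the other way, with no counts in BAC and 594 and 605 in 3T3-L1, at least 445-fold lower.

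**Figure D3:**
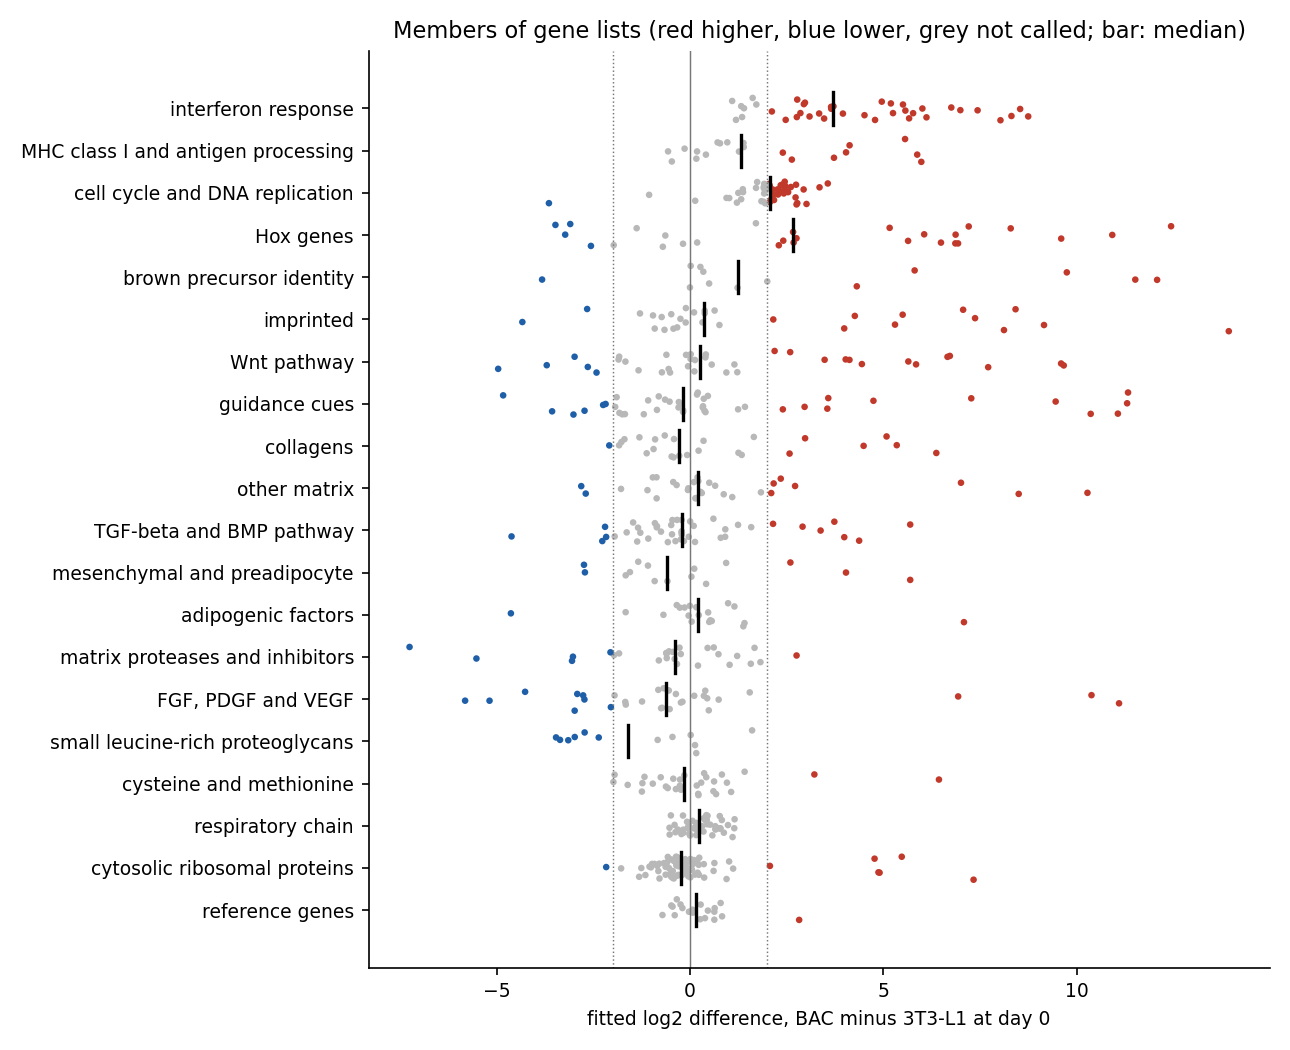
Each point is a tested member of the gene list named on the vertical axis, placed at its fitted log2 difference, BAC minus 3T3-L1 at day 0, with red for members called higher, blue for those called lower, grey for those not called, a black bar at the list's median and dotted lines at the 4-fold limits. The interferon list (median 3.71) lies wholly to the right of 0, cell cycle genes crowd around their median of 2.08, small leucine-rich proteoglycans have their median at -1.60, and respiratory chain genes stay between -0.53 and 1.15.

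Cell cycle and DNA replication genes were higher in BAC as a body, by a smaller and much more even margin. Of 50 tested, 28 (56%) were called higher, 1 (2%) was called lower and 21 were not called, beside 9.05% and 3.71% of all genes, and the median of 2.08 sat at the 4-fold limit. Many members lay near that limit, and 37 were called higher with library sizes as the only scaling. Mki67, the proliferation antigen, had 5288 and 5965 counts in BAC and 725 and 752 in 3T3-L1 (2.78 ± 0.070). Mcm6, a subunit of the replicative helicase, had 4537 and 4823 against 600 and 656 (2.74 ± 0.066), and Ccnb2, a mitotic cyclin, had 1156 and 1072 against 104 and 92 (3.35 ± 0.092). Cdc6, which loads the helicase, differed by 3.01 ± 0.15, and E2f8 and E2f2, members of the E2F family that times S phase, by 2.94 ± 0.14 and 3.56 ± 0.39. Pcna, Mcm5, Tyms and Ccnb1 fell just short of the limit, between 1.85 and 1.94.

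E2F factors bind the motif TTTCCCGC or TTTGGCGC in the promoters of replication genes. One or the other, on either strand, was in the promoter window of 7 of the 23 called members with a window (30.4%), against 1.80% of all genes with one and 3.47% of those tested. Over all 37 members with a window, called or not, it was in 10 (27%). A high share comes with a list of replication genes and says nothing about the gaps. The windows of a helicase gene and its loader are given to show the motif, in capitals, from the same RefSeq build.
Mcm6 (chr1:128359782-128359841, minus strand): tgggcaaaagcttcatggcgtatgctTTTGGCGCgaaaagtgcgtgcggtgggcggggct
Cdc6 (chr11:98907987-98908046, plus strand): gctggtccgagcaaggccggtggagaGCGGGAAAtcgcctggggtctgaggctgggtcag

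The 1 member called lower was Ccnd1, the cyclin D1 that links growth factor signals to the start of the cycle, with 240 and 261 counts in BAC and 2796 and 2853 in 3T3-L1 (-3.65 ± 0.070; adjusted p = 5.92e-16). Ccnd2 and Ccnd3 were not called, at -1.06 and 0.14. Large T antigen, present in BAC alone, is known to bind the retinoblastoma proteins and p53, and its part in these values cannot be told apart from that of the line. Among cell cycle inhibitors and p53 targets, 2 of 29 (6.9%) were higher and 1 (3.45%) lower, no larger shares than those of all genes, 9.05% and 3.71%, with a median of -0.38. Trp53 itself differed by 0.85, Cdkn1a, which encodes p21, by -0.48, Cdkn2a by -0.67, and Rb1 by -0.24. Cdkn1c, an imprinted inhibitor that encodes p57, had 127 and 101 counts in BAC and 1 and 0 in 3T3-L1, a ratio of 205 (95% interval 36.4 to 8121), and Rbl1, which encodes the pocket protein p107, was higher by 2.15 ± 0.085.

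The lower member was Mdm2 (chr10:117688875-117710758), the p53 target whose product is the ubiquitin ligase that degrades p53. Mdm2 had 1162 and 1159 counts in BAC and 48044 and 50639 in 3T3-L1. It was among the most highly counted genes of 3T3-L1, and the log2 difference was -5.56 ± 0.074 (adjusted p = 1.70e-17). The gene next to it on chromosome 10, Slc35e3, a putative nucleotide sugar transporter, showed the same gap, with 503 and 486 counts against 23530 and 23458 (-5.72 ± 0.072).

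**Figure D4:**
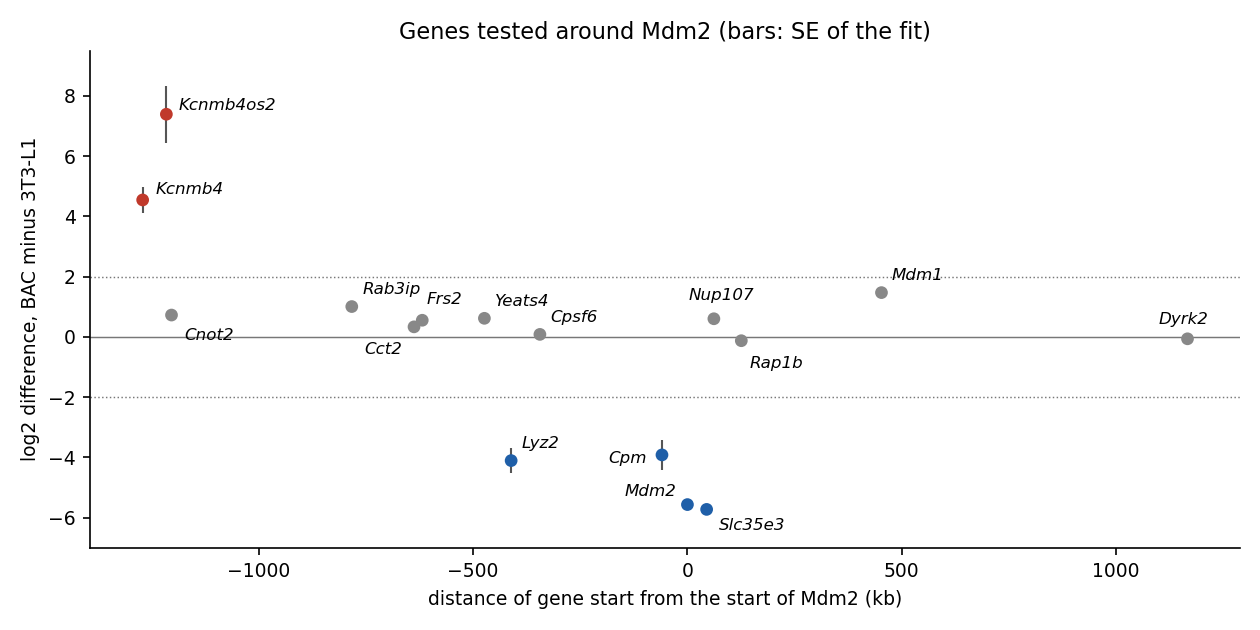
Genes tested within 1300 kb of Mdm2 are placed by the distance of their start from the start of Mdm2 in kb (horizontal axis) and by their log2 difference, BAC minus 3T3-L1, with bars for the SE (vertical axis). Mdm2 and Slc35e3, 44.8 kb apart, lie at -5.56 and -5.72, whereas Nup107 and Rap1b, at 61.7 and 125.7 kb, lie at 0.60 and -0.12.

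The gap did not extend evenly beyond the pair. On the far side of Slc35e3, Nup107, a nuclear pore subunit, had 752 and 806 counts in BAC against 460 and 461, and Rap1b, a small GTPase, had 1814 and 1879 against 1789 and 1829. On the other side Cpm, a carboxypeptidase gene that starts at -59.4 kb from Mdm2, was lower in BAC but barely counted, with 2 and 1 against 20 and 24 counts, and Lyz2, the lysozyme of myeloid cells, had 5 and 2 against 67 and 45, while Cpsf6 between it and Cpm differed by only 0.09. The list of Mdm2 and its neighbours has 11 genes. Of these, 4 (36.4%) were lower, beside 3.71% of all genes, 0 higher by edgeR and by DESeq2 (5 at an unadjusted p below 0.05) and 7 not called. The 4 were Mdm2 and Slc35e3 themselves and the weakly counted Cpm and Lyz2. The pair was known when the list was made, so this share is not a separate result about the region. The p53 targets Ccng1, Bax, Phlda3, Zmat3 and Trp53inp1 were not called and lay between -1.21 and -0.04.

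The RNAs of X inactivation and of the Y chromosome were nearly all in BAC. Xist, the RNA that silences the inactive X, had 6945 and 6894 counts in BAC and 3 and 5 in 3T3-L1 (10.56 ± 0.13). The Y-linked genes Eif2s3y, Ddx3y, Kdm5d and Uty had at most 1 count in 3T3-L1. Eif2s3y had 325 and 320 counts against none (at least 193-fold), Kdm5d 249 and 242 against none (at least 147-fold), and Ddx3y 407 and 349 against 1 and 0. BAC thus had both an X-inactivation RNA and Y-linked RNA, and 3T3-L1 had next to none of either. Tsix, the antisense partner of Xist, had 104 and 85 counts in BAC and none in 3T3-L1, but without strand its reads cannot be told apart from those of Xist. Of all 414 tested X-linked genes, 35 (8.45%) were called higher and 24 (5.8%) lower, beside 9.05% and 3.71% of all genes, with a median of -0.30.

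Imprinted genes, which are expressed from 1 parental copy, held some of the largest single differences. Of 30 tested, 11 (36.7%) were higher in BAC and 2 (6.67%) lower, beside 9.05% and 3.71% of all genes, with a median of 0.35 over the list (0.09 without BAC replicate 2). Meg3, the maternally expressed noncoding RNA of the Dlk1 to Dio3 domain on chromosome 12, had 2152 and 1977 counts in BAC and none in 3T3-L1, at least 1236-fold higher, the largest such bound among named genes with no count in 3T3-L1. Rian, a second noncoding RNA of the same domain, had 967 and 960 counts against 17 and 21 (5.50 ± 0.13), and Mirg and Dio3 were higher as well. Dlk1, the paternally expressed gene at the other end, was opposite. Dlk1, a transmembrane protein that marks preadipocytes and holds back their differentiation, had 1939 and 1790 counts in BAC and 34707 and 32950 in 3T3-L1, or 182 ± 9.59 CPM against 3666 ± 131 CPM (log2 difference -4.34 ± 0.071). Rtl1, in the same domain, was not called at 0.32.

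Elsewhere among imprinted genes, Plagl1, a zinc finger factor of a growth network, had 6863 and 5997 counts in BAC and 10 in each 3T3-L1 library (9.16 ± 0.13). Grb10, an adaptor that restrains insulin signalling, had 2308 and 2414 against 10 and 5 (8.12 ± 0.14), and H19, a noncoding RNA, had 1913 and 1876 against 79 and 98 (4.26 ± 0.089), while its neighbour Igf2 did not differ beyond its error (0.10 ± 0.13). Peg3 was lower in BAC, at 101 and 118 counts against 546 and 699. Of the 11 higher members, 5 have exons that overlap no other gene, and the median of the 15 such genes tested was -0.11.

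Of 12 small leucine-rich proteoglycans, which space and bind collagen fibrils, 6 (50%) were lower in BAC, beside 3.71% of all genes, and 0 higher by edgeR and by DESeq2 (1 at an unadjusted p below 0.05), with a median of -1.60. Dcn, decorin, had 1595 and 1600 counts in BAC against 16790 and 14896 in 3T3-L1 (-3.46 ± 0.070), and Aspn, asporin, had 1592 and 1612 against 14805 and 14787 (-3.36 ± 0.060). Prelp and Lum were lower by similar amounts, at -3.15 ± 0.094 and -2.72 ± 0.11. The other called members were weakly counted, Kera with 10 and 8 against 36 and 48 counts and Epyc with 1 and 3 against 18 and 12. Dcn, Lum, Kera and Epyc lie close together on chromosome 10. Bgn, biglycan, differed by -0.45 and Ogn, osteoglycin, by 0.02, so the list was split. Of its 9 members whose exons overlap no other gene, 3 were lower and the median was -0.45.

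Of 25 collagens tested, 6 (24%) were called higher in BAC and 1 (4%) lower, beside 9.05% and 3.71% of all genes, while the median was below 0, at -0.28. Among fibrillar chains, Col1a1, Col1a2, Col3a1, Col5a1 and Col5a2 were not called and lay between -1.77 and 0.35, and Col11a1 was not called at -1.83. Col2a1 and Col27a1, also fibrillar and given below, were called. Col15a1, a basement membrane-zone collagen, had 8055 and 8320 counts in BAC and 179 and 182 in 3T3-L1 (5.35 ± 0.073), and Col4a6 and Col8a1 were higher by 4.49 ± 0.25 and 2.98 ± 0.078. Col2a1, the collagen of cartilage, had 137 and 161 counts against 2 and 1, a ratio of 89.2 (95% interval 30.2 to 435). Col27a1 was the lower one at -2.09 ± 0.093, and its call was lost with library sizes as the only scaling (-1.99) and without BAC replicate 2 (-1.92).

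Of 30 other matrix genes tested, 7 (23.3%) were higher and 2 (6.67%), Comp and Mfap5, were lower, beside 9.05% and 3.71% of all genes. Efemp1, the glycoprotein fibulin-3, had 6722 and 6690 counts in BAC and 20 and 13 in 3T3-L1 (8.50 ± 0.11; adjusted p = 1.25e-17). Fbn2, fibrillin-2, had 835 and 877 counts against 1 and 0, a ratio of 1537 (95% interval 276 to 60748), whereas Fbn1, fibrillin-1, differed by 0.87. Loxl2, a crosslinking oxidase, had 1538 and 1793 against 10 and 13 (7.01 ± 0.15), while the related Lox and Loxl1 lay at -0.43 and 0.21. Of 27 matrix proteases and inhibitors tested, 5 (18.5%) were lower and 1 (3.7%) higher, beside 3.71% and 9.05% of all genes. One of the 5, Adamts9, was no longer called with library sizes as the only scaling (-1.96) or without BAC replicate 1 (-1.84). Mmp2, gelatinase A, had 4030 and 4261 counts in BAC against 30208 and 30528 (-3.03 ± 0.063), Mmp3, stromelysin-1, had 0 and 1 against 97 and 76, and Mmp9 was lower by -3.05 ± 0.18 on the log2 scale. Among 21 laminins and integrins 4 (19%) were higher and 2 (9.52%) lower, beside 9.05% and 3.71% of all genes. Their median of 0.07 had no stable sign, at -0.03 without BAC replicate 1, 0.18 without BAC replicate 2 and -0.40 over the 14 whose exons overlap no other gene. They included Lama4, the mesenchymal laminin chain, at -2.15 ± 0.063 and Itga6, a laminin receptor, at -3.54 ± 0.11.

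In the Wnt pathway, which holds preadipocytes undifferentiated, 13 of 38 tested genes (34.2%) were higher in BAC and 5 (13.2%) lower, beside 9.05% and 3.71% of all genes (median 0.27). Among ligands, Wnt4 was lower in BAC, with 10 and 1 counts against 167 and 148, and Wnt5b was counted in BAC alone, with 35 and 20. Among secreted inhibitors, Sfrp1 had 3768 and 3686 counts in BAC and 7 and 1 in 3T3-L1 (9.67 ± 0.16; adjusted p = 1.04e-16), Sfrp4 had 352 and 350 against 3 and 3 (6.66 ± 0.23), and Dkk2 and Dkk3 were higher as well. Among receptors, Fzd6 had 97 and 107 counts against none (at least 61.1-fold), Ror2 had 379 and 415 against 8 and 6 (5.65 ± 0.20), and its relative Ror1 was lower (-2.42 ± 0.12). Of the R-spondins, which amplify Wnt signals, Rspo2 was higher by 4.03 ± 0.16, and Lgr4, their receptor, was lower, with 302 and 300 counts against 2139 and 2144 (-2.98 ± 0.067).

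Among growth factors of the FGF, PDGF and VEGF families and their receptors, 8 of 32 (25%) were lower in BAC and 3 (9.38%) higher, beside 3.71% and 9.05% of all genes (median -0.63). Fgf10, a fibroblast growth factor needed for fat development, had 29 and 22 counts in BAC against 823 and 852 in 3T3-L1 (-5.18 ± 0.12). Kdr, which encodes VEGFR2, had 170 and 182 counts in BAC and none in 3T3-L1 (at least 105-fold higher), and Flt1, which encodes VEGFR1, had 1 and 2 against 75 and 90, a ratio of 61.3 in favour of 3T3-L1 (95% interval 20.6 to 300). Pdgfd, a ligand of PDGFRβ, had 288 and 289 counts in BAC and none in 3T3-L1, at least 173-fold higher, and the PDGF receptor-like gene Pdgfrl had 97 and 96 against 1697 and 1641.

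In the TGF-β and BMP pathway, 7 of 45 (15.6%) were higher and 4 (8.89%) lower, beside 9.05% and 3.71% of all genes (median -0.22). Tgfbi, a matrix protein induced by TGF-β, had 6329 and 6115 counts against 420 in each 3T3-L1 library (3.73 ± 0.064), and Ltbp2, a latent TGF-β binding protein relative, had 270 and 306 against 6157 and 6537 (-4.62 ± 0.075). The type I and II receptors Tgfbr1, Tgfbr2, Bmpr1a and Bmpr2 and the signal carriers Smad1 to Smad5 lay between -0.85 and 0.61, and Acvr2a was lower at -2.20 ± 0.064.

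The question behind the series concerns cysteine and methionine metabolism in brown fat cells. Before differentiation, 2 of 31 tested genes (6.45%) were at least 4-fold higher in BAC and 0 lower by edgeR and by DESeq2, beside 9.05% and 3.71% of all genes. At an unadjusted p below 0.05, 13 were higher and 15 lower. The median was -0.15, 0.25 over the 20 whose exons overlap no other gene and -0.07 without BAC replicate 1. Cars2, the mitochondrial cysteinyl-tRNA synthetase that also makes cysteine persulfide, had 233 and 232 counts in BAC and 286 and 278 in 3T3-L1 (-0.43 ± 0.096; adjusted p = 7.13e-04), and Cars, its cytosolic counterpart, differed by -0.62 ± 0.065. Mat2a and Mat2b, which make S-adenosylmethionine, differed by -0.96 ± 0.054 and -1.23 ± 0.069, Got1 by -1.24 ± 0.096, Cdo1, which oxidises cysteine toward taurine, by -1.61 ± 0.12, Ahcyl1 by 0.18 ± 0.058 and Txn2, the mitochondrial thioredoxin, by 0.29 ± 0.073. Each passed the test and none passed the 4-fold limit. Cbs, the first enzyme of transsulfuration, was called higher but weakly counted, at 50 and 35 against 4 and 4 counts (3.22 ± 0.39). Cth, the second, was at 33 and 17 against 88 and 90 counts (-1.98 ± 0.24), and was called lower without BAC replicate 1 (-2.53) and, just past the limit, without 3T3-L1 replicate 2 (adjusted p = 0.000763). Fmo1, a monooxygenase on the list for taurine synthesis, had 196 and 213 counts against 3 and 1.

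None of 52 nuclear genes of the respiratory chain was called higher or lower by edgeR or DESeq2, beside 9.05% and 3.71% of all genes. Their median was 0.25 and their range ran from -0.53 to 1.15, although 30 were higher and 11 lower at an unadjusted p below 0.05. With all 8 libraries in 1 fit, 1 was called higher. None of 12 transcripts of mitochondrial DNA was called by either tool (7 higher and 2 lower at an unadjusted p below 0.05), and their median was 0.32 (0.17 without BAC replicate 2). The BAC libraries disagreed for some of them. ATP6 had 1040 counts in BAC replicate 1 and 2626 in BAC replicate 2, and COX2 had 1192 and 2449, while ND6 went the other way with 22088 and 15458. Of 20 common reference genes, 1 was called higher in BAC, and Actb, Gapdh, Tbp and Ppia lay between 0.26 and 0.64. Lists of 12 and 20 genes are too small to tell such counts from the 9.05% and 3.71% of all genes.

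Ribosomal protein genes have many near-identical processed copies, between which reads can be split in different ways. Of 82 tested, 6 (7.32%) were higher in BAC and 1 (1.22%) lower, below the shares of all genes, 9.05% and 3.71%, and the median was -0.24. Rps4l had 106 and 116 counts in BAC and 1 and 0 in 3T3-L1, a ratio of 199 (95% interval 35.4 to 7908). Rpl34 had 2543 and 2097 counts in BAC and 75 and 64 in 3T3-L1 (4.90 ± 0.12), whereas the pseudogene Rpl34-ps1 had 87 and 94 in BAC and 2376 and 2117 in 3T3-L1. Their sum was 2630 and 2191 in BAC and 2451 and 2181 in 3T3-L1, or 255 and 214 CPM against 265 and 237 CPM, so the pair together overlapped between the lines while each gene alone was called. Rpl29, Rps2, Rpl21 and Rps18 had gaps of the same sign as Rpl34, from 2.07 to 5.48. Gaps in genes with close copies are therefore uncertain. Over all genes, 10.1% of the 7395 tested genes whose exons overlap no other gene were called higher and 4.02% lower, against 7.25% and 3.25% of the 4674 with overlapping exons.

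Whole chromosomes also differed between the lines, by much less than single genes. The median log2 difference was -0.51 over the 670 tested genes of chromosome 8 and 0.51 over the 607 of chromosome 10, and the other autosomes lay between -0.16 and 0.31. The well-counted genes gave -0.54 and 0.49 for these chromosomes. On chromosome 8, runs of 15 neighbouring well-counted genes reached a median of -1.56 in the stretch from Adcy7 to Gnao1 (chr8:88272190-93969388 in GRCm38.p6). The highest run, at 2.76, was the one on chromosome 11 from Ngfr to Hoxb4, which holds part of the Hoxb cluster.

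**Figure D5:**
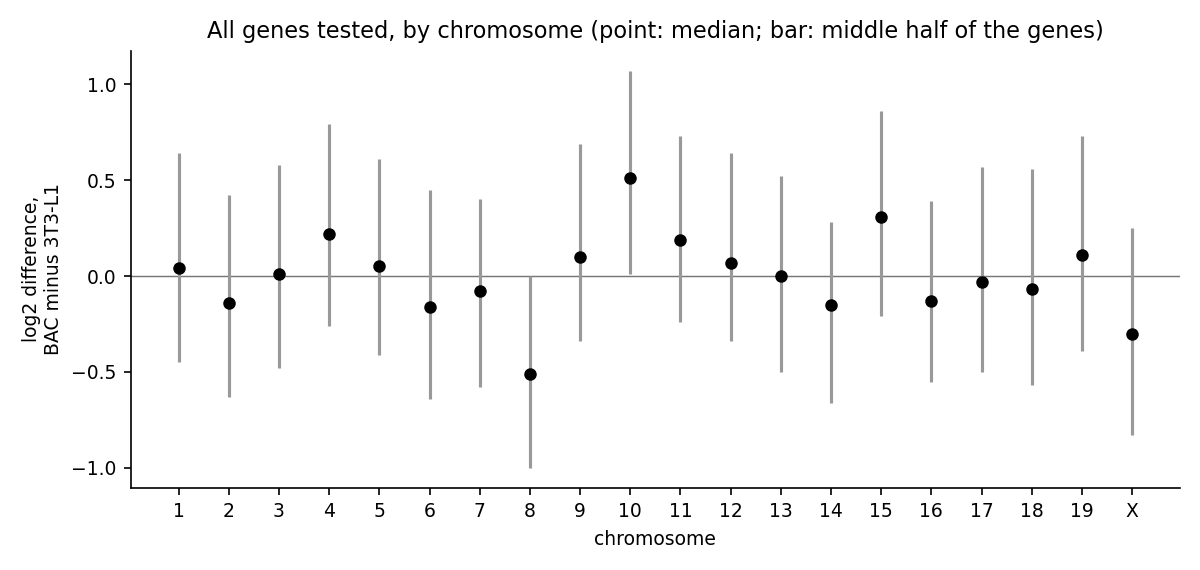
For each autosome and the X chromosome (horizontal axis) the point is the median log2 difference of the genes tested, BAC minus 3T3-L1 (vertical axis), and the bar spans the middle 50% of its genes. Chromosome 8 lies lowest at -0.51 and chromosome 10 highest at 0.51.

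The largest gaps among well-counted genes outside these groups completed the picture. With no counts at day 0 in 3T3-L1, Plxdc2, a plexin domain transmembrane protein, had 1115 and 1235 counts in BAC (at least 703-fold higher), Ptprg, a receptor tyrosine phosphatase, had 698 and 682 (at least 413-fold), Sprr1a, a small proline-rich protein of epithelia and injured nerve, had 715 and 627 (at least 402-fold), and Fam69c and Fbxl7 were at least 370-fold and 323-fold higher. Greb1, an oestrogen-responsive gene, was at 327 and 311 counts against none at day 0, but 9 and 17 at day 6. In the other direction, Tspan11, a tetraspanin, had 0 and 1 counts in BAC against 625 and 616, a ratio of 1382 (95% interval 248 to 54637), and Itgbl1, an integrin beta-like matrix protein, had 4 and 2 against 1933 and 1836 (-9.39 ± 0.15). Matn4, a matrilin, Tfap2a, a factor of neural crest and skin, and Npy1r, a receptor of neuropeptide Y, were lower by between -8.12 and -6.51 on the log2 scale, and Aqp1, a water channel, had 40 and 36 counts in BAC against 1968 and 2108 in 3T3-L1 (-5.89 ± 0.10).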

How the data were processed

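Each line had 1 table of raw gene counts as deposited by the authors (35976 BAC rows, 21828 3T3-L1 rows, whole numbers per gene symbol, not normalized). Poly(A) RNA was sequenced. For brown adipocytes the study's methods name STAR and HTSeq, while the submitters' processing notes for both lines name Bowtie2, RSEM 1.3.1, DESeq2 1.4.5 and mm10, and the sources used here do not give the strand. The 14148 BAC rows with no 3T3-L1 partner, 27 of them turned into dates, were left out.

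The 4 day 0 libraries were fitted in edgeR 4.0.16 (R 4.3.3) with TMM factors, filterByExpr (minimum count 10) and the two-sided quasi-likelihood test, adjusted by Benjamini-Hochberg over all 12355 genes tested. Every adjusted p is from edgeR. A gene was called at an adjusted p below 0.05 and at least 4-fold. Errors on log2 differences are SE, and CPM values are means ± SD of 2 libraries. A fold against no counts is a lower bound taken at 3 counts for the 2 libraries together, and 1 to 3 counts give a ratio with its exact 95% interval (counting error only). Positions and promoters are from RefSeq (GRCm38.p6), in which 21761 symbols were found.

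The members and gene lists were chosen with earlier results of these data known. Named genes were a fixed set, the 15 largest called differences in each direction among well-counted genes, and up to 4 and 2 members per list. Other list members named were taken with their values in view. Alternatives were other scalings (library size, upper-quartile, RLE), DESeq2 1.42.0, no filter, all 8 libraries, each library left out, gene subsets and other fold limits. No column of values was left unmapped (0 columns). A few list members are counted in the totals but not reported here by name.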

Additional observations from a re-analysis of the deposited data

Results flagged for a closer look

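Counts outside the comparison were carried by the 14148 row names that occurred for BAC only. These rows took 2.18% of the counts of BAC replicate 1 and 2.17% of those of BAC replicate 2 at day 0. They are given because they carry counts that the comparison did not use. They have no partner in the 3T3-L1 table, so no difference between the lines can be given for them. Groups of 2 libraries are too small for a search for outlying samples.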

How the results depend on the processing

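No paired analysis was possible because the groups share only replicate number 2. At a 2-fold limit 2049 genes were higher in BAC and 1393 lower, at an 8-fold limit 719 and 230, and by glmTreat against a 2-fold difference 1628 and 950. Among well-counted genes the counts were 527 and 239, and among the 7395 genes whose exons overlap no other gene 748 and 297. Leaving out each library in turn gave 1102 to 1243 higher and 453 to 508 lower; with 1 library left in a group, its spread was assumed to be like that of the other group. DESeq2 called 1120 and 456, of which 1115 and 455 were shared with the main calls. The alternative chosen after seeing the data, genes counted in both tables on some day, kept 1007 and 438. Library size, upper-quartile and RLE scaling, no low-count filter, all 8 libraries and protein-coding genes left both counts within 1.5 times, and library size alone moved the median log2 difference of all genes from 0.02 to 0.11. Of 173 named genes tested, 169 kept their call and direction under the other scalings, DESeq2, no filter, all 8 libraries, protein-coding genes, genes without exon overlap and each library left out, where tested, always at the 4-fold limit; they were not followed at other fold limits. The others were Cth, Col27a1 and Adamts9, given above, and Il34, no longer called without BAC replicate 2 (-1.72). Of the genes called, 591 higher and 219 lower were below the well-counted level, where counts limit precision.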

Other observations

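Guidance cues, the ligands and receptors that steer cells and axons, divided the lines in both directions, with 11 of 43 tested genes (25.6%) higher in BAC and 6 (14%) lower, beside 9.05% and 3.71% of all genes. Their median of -0.18 had no stable sign, at 0.20 with no low-count filter, 0.18 with all 8 libraries, 0.01 without BAC replicate 1 and 0.04 without 3T3-L1 replicate 2. Epha7 had 315 and 363 counts in BAC and none in 3T3-L1 (at least 203-fold), Robo1, a receptor of SLIT proteins, had 339 and 328 against none (at least 200-fold), and Ephb1 and Plxnc1 were at least 169-fold and 104-fold higher. Slit2, a ligand of ROBO1, had 255 and 253 counts in BAC against 2690 and 2720 in 3T3-L1 (-3.57 ± 0.068), and Epha4 had 13 and 18 against 366 and 434 (-4.83 ± 0.18).

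In glutathione metabolism 5 of 30 genes (16.7%) were higher and 1 (3.33%) lower, beside 9.05% and 3.71% of all genes (median 0.17). Without BAC replicate 1 or 3T3-L1 replicate 3, 2 were called lower. Gpx3, the secreted glutathione peroxidase, had 3495 and 3429 counts in BAC and 9 and 1 in 3T3-L1 (9.25 ± 0.17), while Gpx1 and Gpx4 lay at -0.64 and 0.67. The IGF list had 17 tested genes and a median of -0.55. Igfbp5 and Htra1 alone were called higher and Igfals alone lower, beside 9.05% and 3.71% of all genes. Igfbp5 had 455 and 469 counts against 8 and 11 (5.43 ± 0.18). Htra1, a secreted protease on that list, had 1950 and 2001 against 26 and 15 (6.43 ± 0.12). Igfals had only 6 and 4 counts against 28 and 31, and Igf1 and Igf1r were not called, at -0.64 and -0.55. In the complement system C3 was lower in BAC (507 and 472 against 2951 and 2815 counts), as was C1rb (18 and 20 against 984 and 882), whereas C4b was higher by 2.82 ± 0.092. C1rb and C1s2 have close copies, C1ra and C1s1, which were not called at 0.32 and -0.07. Il1rn, the antagonist of interleukin-1, had 1343 and 1414 counts in BAC and 4 and 3 in 3T3-L1 (8.42 ± 0.16). None of 7 tested genes of metallothioneins and zinc transport was called by edgeR or DESeq2 (1 higher and 5 lower at an unadjusted p below 0.05), with a range from -1.30 to 0.93. With only 7 genes, the lack of calls cannot be told apart from the 9.05% higher and 3.71% lower of all genes. Of 18 contractile genes 2 (11.1%) were higher, such as Cnn1 (64 and 65 against 2 and 4 counts), and 1 (5.56%), Mylk, was lower (213 and 216 against 1087 and 1116; 2 were called lower by DESeq2, without BAC replicate 2 and without 3T3-L1 replicate 2). Of 22 genes listed as restrainers of adipogenesis 2 (9.09%), Sfrp1 and Pth1r, were higher and 2 (9.09%), Dlk1 and Wnt6, were lower. The median of that list was -0.44. Sfrp1 inhibits Wnt signals, which hold preadipocytes undifferentiated, so its place among restrainers is doubtful. For both lists the share called higher was close to the 9.05% of all genes. The share called lower was above the 3.71% of all genes in both, on 1 and 2 genes.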
